A study of Caenorhabditis elegans with 11 samples.

Results

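The glutathione S-transferase (GST) family was represented by 48 genes among the 26761 probe sets with a gene symbol that were tested. A probe set was taken as a member when it carried 1 gene symbol beginning with gst-, gsto- or gstk-, and gst-35 was left out and is not described here. Each member had 1 probe set. The arrays came from whole JK1466 worms (Caenorhabditis elegans), a strain whose gonad forms a germ cell tumour because the tumour suppressor gld-1 is knocked down. The purpose was to compare L-tryptophan-betaxanthin, a yellow plant pigment, with 2 derivatives in which the carboxyl group of the tryptophan unit is a methyl or a benzyl ester. The groups were worms given tryptophan-betaxanthin (3 arrays), tryptophan methyl ester-betaxanthin (3 arrays) or tryptophan benzyl ester-betaxanthin (3 arrays), each at 25 µM, and worms given water (2 arrays).

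All 4 groups had the same genotype, gld-1(-). According to the methods the mutation is carried over a chromosome marked with dpy-5 and unc-13, and the worms ate E. coli HT115 bacteria that express double-stranded RNA against gld-1, so the controls carried both. Treatment began in L1 larvae 16 to 18 h after hatching and lasted 48 h at 20 °C, and the labels give the age at collection as 2 days, L4 or young adult. Every array was a pool of whole animals, and the share of worms with and without the marked chromosome in a pool was not measured. In such pools fewer cells of a type and less RNA per cell cannot be told apart.

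GST enzymes join glutathione to reactive compounds, foreign or made by the cell, so that the conjugate can be exported and broken down. In C. elegans most of them are small cytosolic proteins, and many are encoded in runs of neighbouring genes. The transcription factor SKN-1 switches on several, of which gst-4 is the usual reporter of oxidative stress. The omega class (gsto) also reduces oxidised small molecules and proteins, the kappa class (gstk) is a separate type found in mitochondria and peroxisomes, and the zeta class enzyme gst-42 works in tyrosine breakdown.

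The values were log2 signals after RMA, the method that corrects background, makes the arrays' distributions alike and joins the probes of a gene. Array medians ran from 2.18 to 2.24, and the lowest correlation between arrays over all probe sets was 0.960. RMA gives no detection call. Of the 48 GST genes, 31 had a mean above the median probe set (2.28) and 17 were below it, and the member means ran from 1.23 for gst-17 to 9.76 for gst-13. Signals of different probe sets are not amounts that can be set against each other. gld-1 itself had log2 signals of 5.5 to 7.45. It differed from water by −0.14, −0.72 and −1.31 for tryptophan-betaxanthin, the methyl ester and the benzyl ester, and none of these passed (adjusted p = 0.973, 0.376 and 0.167). The 3 benzyl ester arrays of gld-1 (5.5 to 6.44) were all below the 2 water arrays (7.32 and 7.43). The probes do not show which part of gld-1 is lost, so this does not check the labels.

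Germline and cuticle markers also differed between the groups. The summed linear signal of 14 oocyte and eggshell genes was 1932 to 2444 with tryptophan-betaxanthin, 478 to 1570 with the methyl ester, 527 to 1071 with the benzyl ester and 1960 to 2153 with water. That of 25 sperm genes was 11577 to 12149, 5050 to 10181 and 5355 to 9912 under the 3 pigments in the same order, and 12891 to 13041 with water. The low ends of the oocyte and sperm sums under the esters were third-trial arrays. The other ester arrays were at 727 to 1570 for the oocyte sums and at 9517 to 10181 for the sperm sums. Of 6 yolk protein genes the sums were 4112 to 5170 with tryptophan-betaxanthin, 1528 to 4165 under the methyl ester, 1002 to 3578 under the benzyl ester and 4999 to 5043 with water, again lowest in the third-trial ester arrays. For 11 moulting genes the sums were 829 to 1087, 1064 to 2094 and 893 to 2020 under the pigments, and 661 to 683 with water. The high ends under the esters were third-trial arrays, and the other ester arrays were at 893 to 1166. Under each ester all 14 oocyte genes were lower than with tryptophan-betaxanthin at an unadjusted p under 0.05. Of all tested probe sets, 9.91% were lower in this way under the methyl ester and 8.92% under the benzyl ester. The adjusted threshold was passed by 2 of the 14, puf-5 and lin-41, under the benzyl ester only (0.998% of all). Against water, 11 were lower under the methyl ester and 14 under the benzyl ester without an adjustment (8.13% and 7.07% of all), and none passed. All 12 intestine and 11 hypodermis markers were above the median probe set, with intestine sums of 3518 to 3891, 3339 to 3923 and 2741 to 3918 under the pigments and 3049 to 3271 with water. The median log2 signal of the hypodermis markers was 5.51 to 6.09 with tryptophan-betaxanthin, 5.60 to 6.64 under the methyl ester, 5.47 to 6.75 under the benzyl ester and 4.72 to 4.79 with water, and their sums were 1834 to 2189, 1680 to 2205, 1297 to 2311 and 1560 to 1583 in that order. In each pigment group the high ends of the intestine and hypodermis ranges were third-trial arrays. The part of these marker shifts in any GST difference was not tested.

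Across the 6 comparisons of pairs of groups, 7 of the 48 GST genes passed an adjusted p of 0.05 in limma at least once, in 13 gene comparisons. Those lower with an ester were gst-12, gst-4 and gst-30. Those higher with an ester were gst-11, gst-15, gst-39 and gst-42, and these 4 passed against tryptophan-betaxanthin only. Against water, none of the 48 genes, which leave out gst-35, passed with tryptophan-betaxanthin (0.00374% of all tested probe sets did), 1 was lower with the methyl ester (0.0336% of all were lower and 0.224% higher) and 3 were lower with the benzyl ester (0.112% of all were lower and 0.452% higher). Against tryptophan-betaxanthin, the methyl ester had 1 member higher and 1 lower (0.93% and 0.437% of all), and the benzyl ester had 4 higher and 3 lower (2.1% and 0.998% of all). The F-test over the 4 groups called gst-30, gst-12, gst-11 and gst-4, 4 of 48 against 1.34% of all. Without an adjustment, 22 members had an F-test p under 0.05, which is 45.8% of them, against 19.1% of all tested probe sets. At an unadjusted p under 0.05, 12 members were higher and 5 lower with the methyl ester than with water (8.25% and 8.13% of all probe sets), and the benzyl ester had 12 higher and 10 lower (8.21% and 7.07% of all). Against tryptophan-betaxanthin, 12 were higher and 4 lower with the methyl ester (10.3% and 9.91% of all), and the benzyl ester had 12 higher and 9 lower (11.2% and 8.92% of all). The comparisons share the water or the tryptophan-betaxanthin arrays, so their counts are not independent. Groups whose arrays did not overlap, named for single genes below, were common over all probe sets. Against water, 18 members lay wholly higher and 10 lower with the methyl ester (20.4% and 20.8% of all). The benzyl ester had 16 and 13 (19% and 17.4%), and tryptophan-betaxanthin 9 and 17 (16.2% and 17.2%). Against tryptophan-betaxanthin the methyl ester had 15 and 5 (13.5% and 12.9%), and the benzyl ester 13 and 10 (13.4% and 11.1%).

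**Figure D1:**
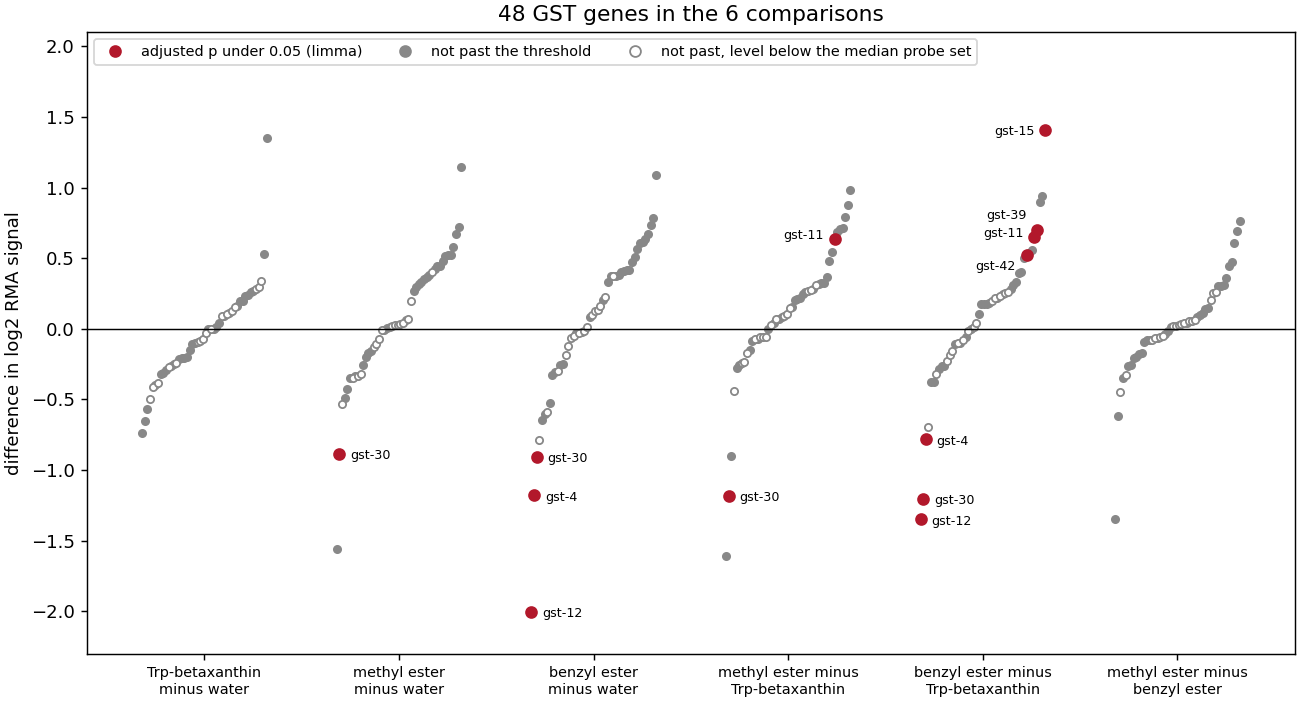
Difference in log2 RMA signal of each of the 48 GST genes in the 6 comparisons, ordered by size within each comparison. Red points passed an adjusted p of 0.05 in limma, grey points did not, and open points did not and had a mean below the median of all probe sets (2.28). The lowest red point is gst-12 with the benzyl ester against water (−2.0), and the highest is gst-15 with the benzyl ester against tryptophan-betaxanthin (1.41).

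The members' differences from water lay on both sides of 0. The median difference of the 48 genes from water was −0.05 with tryptophan-betaxanthin, 0.03 under the methyl ester and 0.11 under the benzyl ester, and over all tested probe sets it was 0.01 in each. Against tryptophan-betaxanthin the medians were 0.13 for the methyl ester and 0.18 for the benzyl ester, where those of all tested probe sets were 0.00 and −0.01. With each array centred on its median, the methyl ester median against water was −0.005 and that of the benzyl ester 0.07. Those of all tested probe sets moved down as well, to −0.03 and −0.04. Over the 31 members above the median signal, the medians against water were −0.10 with tryptophan-betaxanthin (14 above 0), 0.32 under the methyl ester (21 above 0) and 0.38 under the benzyl ester (20 above 0), where those of all probe sets above it were −0.02, −0.03 and −0.02. These medians are a description with no test. Within trials 1, 2 and 3 the median of the 48 genes against tryptophan-betaxanthin was 0.13, 0.10 and 0.05 under the methyl ester. Under the benzyl ester it was 0.07, 0.31 and −0.14, and in the third trial 21 members were higher and 27 lower. Single members ran from −2.0 (gst-12) to 1.09 (gst-9) with the benzyl ester against water.

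The gene with the largest difference from water was gst-12, a cytosolic GST gene in a run of GST genes on chromosome II. Its log2 signal was 6.69, 6.38 and 6.80 with tryptophan-betaxanthin, 6.26, 5.78 and 5.12 under the methyl ester, 5.31, 5.08 and 5.44 under the benzyl ester, and 7.32 and 7.23 with water. Every treated array was below both water arrays, every ester array was below every tryptophan-betaxanthin array, and the 2 esters overlapped. With the benzyl ester gst-12 fell by 2.0 ± 0.28 (SE) on the log2 scale against water, a 4.01-fold lower signal (limma, adjusted p = 0.0158), and by 1.35 ± 0.25 against tryptophan-betaxanthin (adjusted p = 0.0304). The methyl ester difference was −1.56 ± 0.28 against water (adjusted p = 0.0687) and −0.90 ± 0.25 against tryptophan-betaxanthin (adjusted p = 0.0906), and that of tryptophan-betaxanthin against water was −0.65 ± 0.28 (adjusted p = 0.805). Within trials 1 and 2 the benzyl ester difference from water was −2.02 and −2.15. The call against water was lost without either water array or without the second benzyl ester array (differences of −2.08 to −1.90 over the 11 single-array omissions, adjusted p up to 0.237), and in a fit of these 2 groups alone (adjusted p = 0.0542). The call against tryptophan-betaxanthin was lost without either water array, any tryptophan-betaxanthin array or the first or second benzyl ester array (adjusted p up to 0.102, differences of −1.47 to −1.25).

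None of the other 8 GST genes of this run, each within 3 genes of the next, passed against water. In genome order the run is gst-20, gst-24, gst-15, gst-14, gst-12, gst-16, gst-19, gst-17 and gst-18. gst-15 went the other way with the benzyl ester. Its log2 signal was 2.08, 2.37 and 2.89 with tryptophan-betaxanthin, 3.09, 3.22 and 3.41 under the methyl ester, 4.11, 3.43 and 4.02 under the benzyl ester, and 3.11 and 3.25 with water. The tryptophan-betaxanthin arrays were the 3 lowest and the benzyl ester arrays the 3 highest, and water lay within the range of the methyl ester. With the benzyl ester gst-15 was 2.66-fold higher than with tryptophan-betaxanthin (log2 difference 1.41 ± 0.23, adjusted p = 0.0237), by 2.04, 1.06 and 1.13 in trials 1, 2 and 3. Neither group passed against water: the differences were 0.68 ± 0.25 with the benzyl ester (adjusted p = 0.255) and −0.73 ± 0.25 with tryptophan-betaxanthin (adjusted p = 0.720). The gst-15 call was lost without either water array or without the first or second tryptophan-betaxanthin array (adjusted p up to 0.104, differences of 1.22 to 1.63).

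gst-20, the gene of the run with the highest signal, was at 8.58, 8.43 and 8.68 with tryptophan-betaxanthin, 8.42, 8.38 and 8.06 under the methyl ester, 8.42, 8.20 and 7.94 under the benzyl ester, and 8.75 and 8.68 with water. Both esters lay below water and below tryptophan-betaxanthin in every array, by −0.43 and −0.53 against water (methyl and benzyl ester; adjusted p = 0.245 and 0.180). gst-24 was at 4.84, 4.73 and 5.0 with tryptophan-betaxanthin, 5.39, 5.10 and 4.73 under the methyl ester, 5.31, 5.52 and 4.65 under the benzyl ester, and 5.53 and 5.31 with water, and both esters overlapped water. gst-16 was near the median probe set, at 1.99, 2.59 and 2.73 with tryptophan-betaxanthin, 2.13, 2.28 and 1.59 under the methyl ester, 1.76, 1.90 and 1.58 under the benzyl ester, and 2.79 and 2.28 with water. The benzyl ester arrays of gst-16 were below those of water and tryptophan-betaxanthin, but its difference from water, −0.79 ± 0.27, did not pass (adjusted p = 0.220).

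The other 4 genes of the run, gst-14, gst-19, gst-17 and gst-18, had signals below the median probe set in every array. gst-14 was at 1.56, 1.58 and 1.30 with tryptophan-betaxanthin, 1.79, 1.59 and 2.0 under the methyl ester, 1.61, 2.04 and 1.57 under the benzyl ester, and 1.60 and 2.12 with water. gst-19 was at 1.80, 1.74 and 1.58 with tryptophan-betaxanthin, 1.68, 1.31 and 1.94 under the methyl ester, 1.46, 1.43 and 1.25 under the benzyl ester, and 2.08 and 1.86 with water. Its benzyl ester arrays were below those of water and of tryptophan-betaxanthin. gst-17 was at 1.23, 1.15 and 1.26 with tryptophan-betaxanthin, 1.38, 1.29 and 1.28 under the methyl ester, 1.08, 1.14 and 1.11 under the benzyl ester, and 1.39 and 1.2 with water. gst-18 was at 1.70, 1.51 and 1.49 with tryptophan-betaxanthin, 1.51, 1.38 and 1.30 under the methyl ester, 1.36, 1.32 and 1.35 under the benzyl ester, and 1.41 and 1.42 with water. No difference of these 4 genes passed the threshold. Sharing of signal between similar GST genes was not tested, because probe sequences were not used here.

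**Figure D2:**
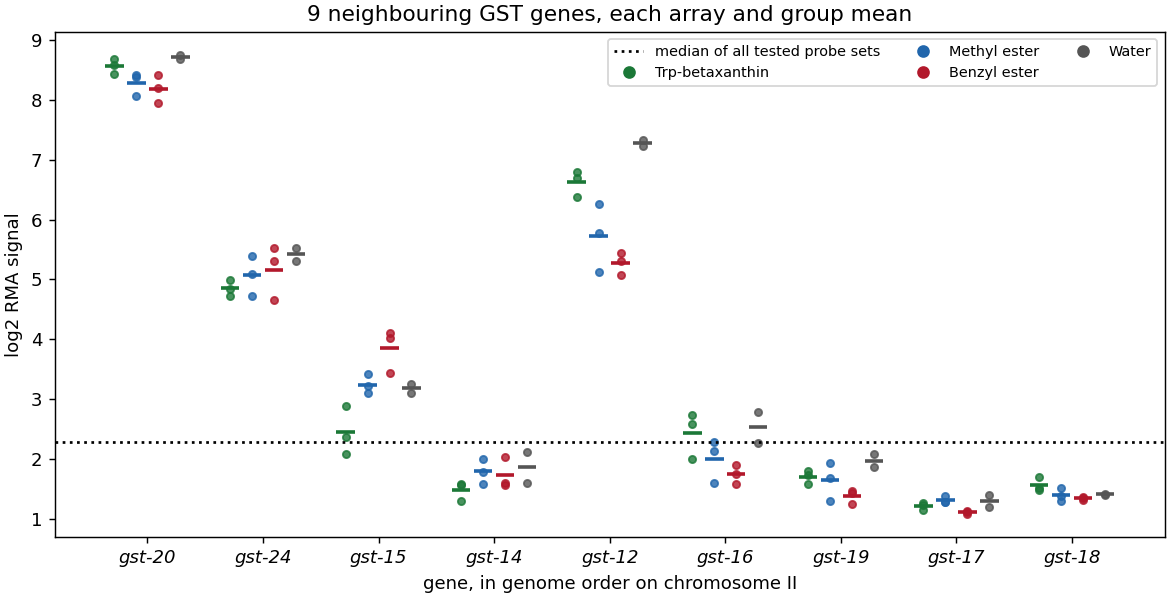
Log2 RMA signal of the 9 neighbouring GST genes on chromosome II in genome order; points are arrays, short lines are group means and the dotted line is the median of all tested probe sets (2.28). gst-12 was lowest with the benzyl ester (5.08 to 5.44) and highest with water (7.23 and 7.32), whereas gst-15, 2 places before it in the run, was highest with the benzyl ester (3.43 to 4.11).

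gst-4, the SKN-1 reporter gene on chromosome IV, was lower with the benzyl ester. Its log2 signal was 8.05, 7.87 and 7.85 with tryptophan-betaxanthin, 8.09, 7.84 and 7.58 under the methyl ester, 7.05, 7.48 and 6.90 under the benzyl ester, and 8.27 and 8.37 with water. The benzyl ester arrays were the 3 lowest of the 11, and all treated arrays were below water. With the benzyl ester gst-4 fell by 1.18 ± 0.19 on the log2 scale against water, a 2.26-fold lower signal (adjusted p = 0.0301), and by 0.78 ± 0.17 against tryptophan-betaxanthin (adjusted p = 0.0410). The difference was −0.49 ± 0.19 with the methyl ester (adjusted p = 0.257) and −0.40 ± 0.19 with tryptophan-betaxanthin (adjusted p = 0.842), both against water. The call against water was lost without either water array, any tryptophan-betaxanthin array or the first benzyl ester array (adjusted p up to 0.345, differences of −1.35 to −1.05), and in a fit of the 2 groups alone (adjusted p = 0.149). The call against tryptophan-betaxanthin held in 3 of the 11 single-array omissions, those of methyl ester arrays, and was lost without any water, tryptophan-betaxanthin or benzyl ester array (adjusted p up to 0.138, differences of −0.95 to −0.66) and in a fit of the 2 groups alone (adjusted p = 0.0627).

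The genes next to gst-4 are gst-3 and gst-2. gst-3 was at 5.72, 5.47 and 5.97 with tryptophan-betaxanthin, 6.22, 5.70 and 7.32 under the methyl ester, 6.29, 6.36 and 7.21 under the benzyl ester, and 5.85 and 5.81 with water. The highest signals of gst-3 were the third-trial arrays of the 2 esters, and its differences from water, 0.58 ± 0.42 for the methyl ester and 0.79 ± 0.42 for the benzyl ester, did not pass (adjusted p = 0.527 and 0.409). gst-2 was at 2.12, 2.08 and 1.83 with tryptophan-betaxanthin, 2.37, 2.15 and 1.95 under the methyl ester, 2.20, 2.31 and 2.11 under the benzyl ester, and 2.57 and 2.44 with water. All 9 treated arrays of gst-2 were below water, by −0.50 ± 0.14 with tryptophan-betaxanthin (adjusted p = 0.577).

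gst-30, a GST gene on chromosome II outside these runs, separated both esters from the other groups. Its log2 signal was 2.87, 2.42 and 2.61 with tryptophan-betaxanthin, 1.5, 1.46 and 1.41 under the methyl ester, 1.55, 1.23 and 1.52 under the benzyl ester, and 2.29 and 2.39 with water. All 6 ester arrays were below the median probe set (2.28), and all 5 others were above it. Against tryptophan-betaxanthin the gene fell by 1.18 ± 0.13 under the methyl ester and by 1.2 ± 0.13 under the benzyl ester on the log2 scale (adjusted p = 0.00764 and 0.00714). The ester signals lay at the level of the dimmest members, so no fold is given for them. These 2 calls held in all 11 single-array omissions, with adjusted p up to 0.0443 and 0.0396. Against water gst-30 fell by 0.88 ± 0.14 with the methyl ester (adjusted p = 0.0475) and by 0.91 ± 0.14 with the benzyl ester (adjusted p = 0.0300). The methyl ester call against water held in 1 of the 11 omissions, that of the third benzyl ester array (adjusted p up to 0.519, differences of −0.93 to −0.83). The benzyl ester call was lost without either water array, the third tryptophan-betaxanthin array, the first methyl ester array or the second benzyl ester array (adjusted p up to 0.345, differences of −0.96 to −0.80). In fits of the 2 groups alone neither passed against water (adjusted p = 0.189 and 0.146).

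**Figure D3:**
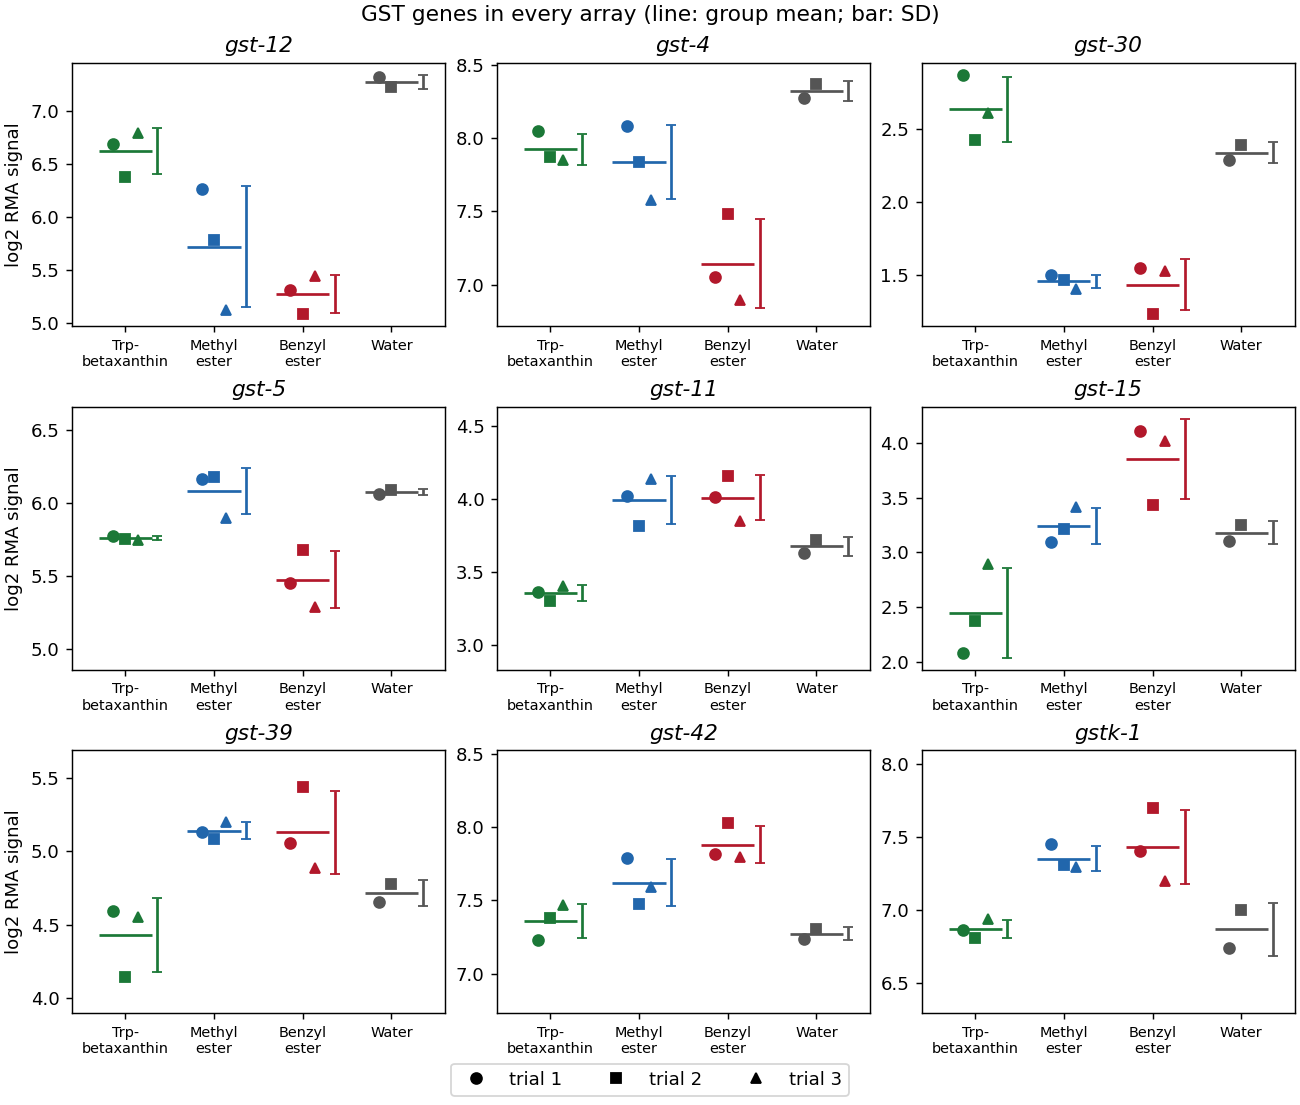
Log2 RMA signal of 9 GST genes in every array, by group; symbols give the trial, horizontal lines the group means and bars the SD (n = 3 for each pigment, n = 2 for water). gst-30 lay at 1.23 to 1.55 in the ester arrays, below the 2.29 to 2.87 of the other arrays, and gst-4 was lowest with the benzyl ester (6.90 to 7.48).

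gst-11, on chromosome X, was higher with both esters than with tryptophan-betaxanthin. It was at 3.37, 3.30 and 3.41 with tryptophan-betaxanthin, 4.02, 3.82 and 4.14 under the methyl ester, 4.02, 4.16 and 3.85 under the benzyl ester, and 3.63 and 3.72 with water. Water lay between the groups: every ester array was above it and every tryptophan-betaxanthin array below it. The gene rose by 0.63 ± 0.11 with the methyl ester (1.55-fold, adjusted p = 0.0321) and by 0.65 ± 0.11 with the benzyl ester (1.57-fold, adjusted p = 0.0257) against tryptophan-betaxanthin. The differences from water were 0.32 ± 0.12 with the methyl ester, 0.33 ± 0.12 with the benzyl ester and −0.32 ± 0.12 with tryptophan-betaxanthin, and none passed (adjusted p = 0.257, 0.246 and 0.783). The methyl ester call was lost without either water array, any tryptophan-betaxanthin array or the trial 1 or trial 3 methyl ester array (adjusted p up to 0.150, differences of 0.56 to 0.72), and in a fit of the 2 groups alone (adjusted p = 0.0825). The benzyl ester call was lost without either water array, any tryptophan-betaxanthin array or the second benzyl ester array (adjusted p up to 0.115, differences of 0.58 to 0.73).

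gst-39 lies in a second run on chromosome II, of 8 GST genes. It was at 4.59, 4.14 and 4.55 with tryptophan-betaxanthin, 5.14, 5.09 and 5.20 under the methyl ester, 5.06, 5.44 and 4.89 under the benzyl ester, and 4.65 and 4.78 with water. All ester arrays were above all arrays of the other 2 groups. The benzyl ester difference from tryptophan-betaxanthin, 0.70 ± 0.16, passed (1.63-fold, adjusted p = 0.0483), and the methyl ester difference, 0.71 ± 0.16, did not (adjusted p = 0.0611). The benzyl ester call held in 2 of the 11 single-array omissions, those of the third methyl ester and the third benzyl ester array (adjusted p up to 0.166, differences of 0.54 to 0.82) and not in a fit of the 2 groups alone (adjusted p = 0.105). Next to it in the run, gst-29 was at 3.45, 3.39 and 3.52 with tryptophan-betaxanthin, 4.33, 4.21 and 4.45 under the methyl ester, 4.27, 5.05 and 3.86 under the benzyl ester, and 3.82 and 3.50 with water. Its ester arrays were also above all others, by 0.88 ± 0.25 and 0.94 ± 0.25 against tryptophan-betaxanthin for the methyl and benzyl ester (adjusted p = 0.0932 and 0.0705).

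The other 6 genes of that run did not pass in any comparison. gst-26 was at 6.86, 6.37 and 6.51 with tryptophan-betaxanthin, 6.70, 7.06 and 6.94 under the methyl ester, 6.67, 7.18 and 6.42 under the benzyl ester, and 6.33 and 6.44 with water. gst-27 was at 5.42, 5.55 and 6.11 with tryptophan-betaxanthin, 5.84, 5.95 and 6.15 under the methyl ester, 5.68, 6.04 and 5.88 under the benzyl ester, and 5.43 and 5.48 with water. In both genes the methyl ester arrays were above water. gst-28 was at 6.08, 5.77 and 5.94 with tryptophan-betaxanthin, 6.23, 6.31 and 5.52 under the methyl ester, 6.03, 6.30 and 5.46 under the benzyl ester, and 6.20 and 6.15 with water, and its 2 lowest arrays were the third-trial arrays of the esters. gst-31, gst-32 and gst-34 were dim. gst-31 was at 1.85, 2.02 and 2.1 with tryptophan-betaxanthin, 1.72, 2.03 and 2.02 under the methyl ester, 2.52, 2.09 and 2.14 under the benzyl ester, and 1.95 and 2.1 with water. gst-32 was at 1.74, 1.39 and 1.43 with tryptophan-betaxanthin, 1.53, 1.39 and 1.47 under the methyl ester, 1.75, 1.63 and 1.21 under the benzyl ester, and 1.24 and 1.55 with water. gst-34 was at 2.14, 1.94 and 2.38 with tryptophan-betaxanthin, 1.97, 1.90 and 1.89 under the methyl ester, 1.96, 1.96 and 2.07 under the benzyl ester, and 2.03 and 2.06 with water, so that its groups largely overlapped.

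gst-42, the zeta class enzyme that isomerises maleylacetoacetate in tyrosine breakdown, was at 7.23, 7.38 and 7.47 with tryptophan-betaxanthin, 7.79, 7.48 and 7.59 under the methyl ester, 7.82, 8.03 and 7.80 under the benzyl ester, and 7.24 and 7.30 with water. The benzyl ester arrays were the 3 highest. Against tryptophan-betaxanthin gst-42 rose by 0.52 ± 0.11 with the benzyl ester (1.44-fold, adjusted p = 0.0393), and its difference from water, 0.61 ± 0.12, did not pass (adjusted p = 0.0765). The call held in 4 of the 11 single-array omissions, those of a methyl ester array or the third benzyl ester array (adjusted p up to 0.138, differences of 0.45 to 0.58) and not in a fit of the 2 groups alone (adjusted p = 0.0652). The enzymes around it in the same route did not pass in this comparison: the differences were 0.10 ± 0.08 for hpd-1, the dioxygenase at the second step, 0.22 ± 0.08 for hgo-1, homogentisate dioxygenase, and −0.13 ± 0.09 for fah-1, fumarylacetoacetase (adjusted p = 0.502, 0.160 and 0.500).

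The kappa class gene gstk-1 had a similar order of groups without a call. It was at 6.86, 6.81 and 6.94 with tryptophan-betaxanthin, 7.45, 7.30 and 7.30 under the methyl ester, 7.40, 7.70 and 7.20 under the benzyl ester, and 6.74 and 7.0 with water. All ester arrays were above all others, and the benzyl ester difference from tryptophan-betaxanthin was 0.56 ± 0.13 (adjusted p = 0.0517). gstk-2 was at 5.09, 4.75 and 5.05 with tryptophan-betaxanthin, 5.17, 5.17 and 5.65 under the methyl ester, 5.20, 5.73 and 5.17 under the benzyl ester, and 5.0 and 4.93 with water. Its ester arrays too were above all others, by 0.37 ± 0.20 and 0.40 ± 0.20 against water (adjusted p = 0.403 and 0.382).

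Of the omega class, gsto-1 was at 7.40, 7.29 and 7.09 with tryptophan-betaxanthin, 7.12, 7.16 and 7.07 under the methyl ester, 7.53, 7.84 and 6.74 under the benzyl ester, and 6.75 and 6.71 with water. Of the 9 treated arrays, 8 were above both water arrays, the exception being the third benzyl ester array, and the differences were 0.53 ± 0.26, 0.38 ± 0.26 and 0.64 ± 0.26 for tryptophan-betaxanthin, the methyl ester and the benzyl ester (adjusted p = 0.855, 0.487 and 0.282). gsto-2 was dim, at 1.51, 1.33 and 1.43 with tryptophan-betaxanthin, 1.65, 1.64 and 1.78 under the methyl ester, 1.58, 1.80 and 1.59 under the benzyl ester, and 1.5 and 1.49 with water. gsto-3 was at 5.54, 5.58 and 5.89 with tryptophan-betaxanthin, 5.24, 5.25 and 5.75 under the methyl ester, 5.24, 5.46 and 6.13 under the benzyl ester, and 5.46 and 5.34 with water. In gsto-3 the third-trial array was the highest of each pigment group.

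gst-5, on chromosome II, had one of the 8 smallest F-test p-values of the family without passing (adjusted p = 0.0613). It was at 5.78, 5.75 and 5.75 with tryptophan-betaxanthin, 6.17, 6.18 and 5.90 under the methyl ester, 5.46, 5.68 and 5.29 under the benzyl ester, and 6.06 and 6.09 with water. The benzyl ester arrays were the 3 lowest, the tryptophan-betaxanthin arrays came next, and the methyl ester overlapped water. The difference from water was −0.60 ± 0.13 with the benzyl ester (adjusted p = 0.0891).

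The 4 members with the highest means, gst-20 among them, passed in no comparison. gst-13 was at 9.80, 9.67 and 9.75 with tryptophan-betaxanthin, 9.93, 9.71 and 9.71 under the methyl ester, 9.71, 9.81 and 9.37 under the benzyl ester, and 9.94 and 9.97 with water. gst-22 was at 9.15, 9.18 and 9.21 with tryptophan-betaxanthin, 9.35, 9.22 and 9.71 under the methyl ester, 9.51, 9.30 and 9.72 under the benzyl ester, and 9.16 and 9.11 with water. gst-36 was at 8.56, 8.53 and 8.54 with tryptophan-betaxanthin, 8.57, 8.69 and 8.37 under the methyl ester, 8.94, 8.91 and 8.30 under the benzyl ester, and 8.78 and 8.72 with water. All treated arrays of gst-13 were below water, and all ester arrays of gst-22 were above water and tryptophan-betaxanthin. The 95% limits of the benzyl ester difference from water were −0.62 to −0.02 for gst-13, 0.02 to 0.73 for gst-22 and −0.43 to 0.38 for gst-36, and none passed (adjusted p = 0.295, 0.3 and 0.966).

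Some members had wide differences that the spread between trials did not let pass. They were chosen after their values were seen. gst-9, on chromosome II, was at 6.34, 5.90 and 5.35 with tryptophan-betaxanthin, 3.76, 4.25 and 4.76 under the methyl ester, 5.98, 6.34 and 4.49 under the benzyl ester, and 4.48 and 4.55 with water. It was above water in every tryptophan-betaxanthin array (1.35 ± 0.51, adjusted p = 0.770) and in the first and second benzyl ester arrays, and the third-trial arrays of these 2 pigments lay closer to water than the earlier ones. Without the third trial it passed with tryptophan-betaxanthin against water (1.61, adjusted p = 0.0206), with the benzyl ester against water (1.65), and with the methyl ester against tryptophan-betaxanthin (−2.12, adjusted p = 0.00272) and against the benzyl ester (−2.16, adjusted p = 0.00250). gst-44 was high in 1 array alone, at 5.26 in the third methyl ester array, with the other 10 arrays at 2.67 to 3.64.

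**Figure D4:**
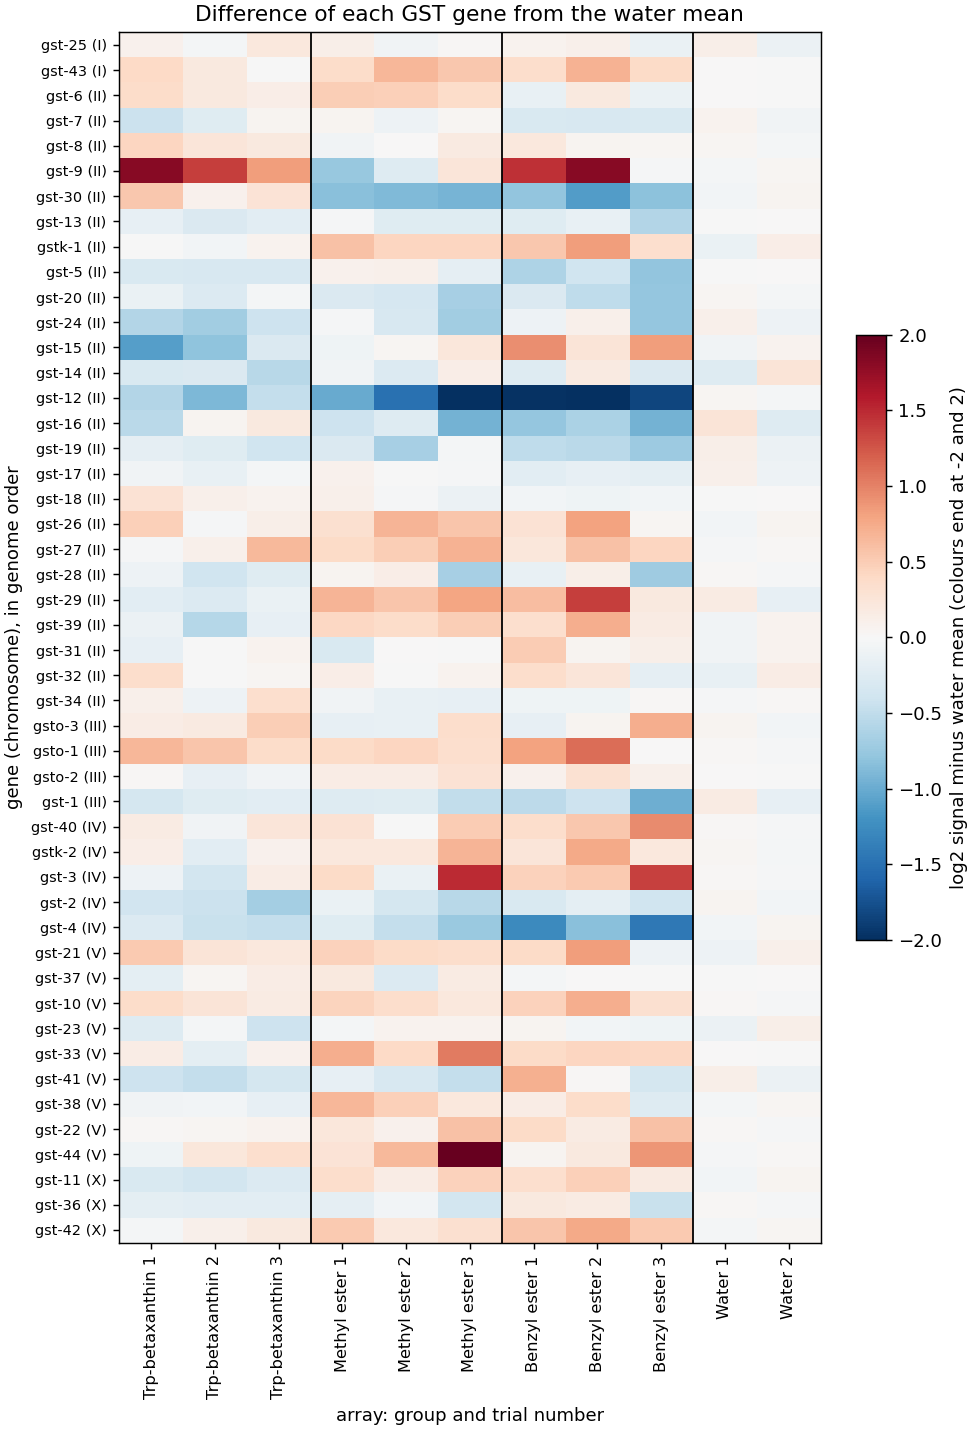
Difference of each of the 48 GST genes from its water mean in every array, in log2 units, with the genes in genome order and their chromosomes in brackets; columns are arrays, grouped by treatment, and red is higher than the water mean. gst-12 is blue in every pigment column and darker in the ester columns, and gst-30 is blue in the 6 ester columns. The strongest red square, gst-44, stands in the third methyl ester array (5.26, where the water arrays were at 2.73 and 2.78).

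The third trial had no water array among those analysed here. Relative to the mean of trials 1 and 2, the third-trial array of the benzyl ester was lower in 37 of the 48 GST genes (median −0.21), that of tryptophan-betaxanthin was higher in 29 (median 0.07), and that of the methyl ester was higher in 24 (median 0.00). Over all tested probe sets these medians lay between −0.01 and 0.00. Without the third trial the benzyl ester had 10 GST genes past the threshold against water, gst-9, gstk-1, gst-29, gsto-1, gst-10 and gst-42 higher and gst-5, gst-12, gst-30 and gst-4 lower, with 5.44% of all tested probe sets past it. Against tryptophan-betaxanthin 13 passed with the benzyl ester (10.9% of all). The methyl ester then had gst-12 and gst-30 lower than water (2.3% of all).

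Between the 2 esters none of the 48 genes passed in limma, where 0.0374% of all tested probe sets were higher with the methyl ester and 0.112% lower. Without an adjustment 5 members were higher with the methyl ester (gst-4, gst-5, gst-6, gst-7 and gst-17) and 4 lower (gst-9, gst-15, gst-31 and gst-42) at a p under 0.05, where 1.9% and 2.43% of all probe sets were. The methyl ester minus benzyl ester difference had 95% limits of 0.32 to 1.07 for gst-4 (adjusted p = 0.400), 0.35 to 0.86 for gst-5 (adjusted p = 0.160), 0.22 to 0.72 for gst-6 (adjusted p = 0.377) and −1.12 to −0.11 for gst-15. For gst-12 the limits were −0.11 to 1.00. They were narrower for gst-30, −0.26 to 0.31, and for gst-11, −0.26 to 0.23. These limits are not adjusted for the number of genes.

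Tryptophan-betaxanthin against water also gave no call among the 48 genes in limma, with 2 members higher (gst-8 and gst-9) and 5 lower (gst-5, gst-12, gst-15, gst-2 and gst-11) at an unadjusted p under 0.05, where 2.52% and 3.52% of all probe sets were. In a fit of these 2 groups alone gst-9 was higher (adjusted p = 0.0235) and gst-12 lower (adjusted p = 0.0461), with 2.96% of all probe sets past the threshold. For the methyl ester against tryptophan-betaxanthin, the third-trial arrays deviated together from the earlier ones. With the trial as a block 9 GST genes passed in place of 2, while 11.1% of all tested probe sets did. Those higher were gst-11, gst-15, gst-33, gst-38, gst-39 and gstk-1, and those lower were gst-9, gst-12 and gst-30.

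In the genome 25 of the 48 genes lie on chromosome II, 9 on V, 5 on IV, 4 on III, 3 on X and 2 on I. Of them, 24 stand in 4 runs of at least 3 genes. The fourth run, gst-6, gst-7, gst-8 and gst-9 on chromosome II, held no gene that passed in the fit to all arrays. Of the 7 genes that passed, gst-12 and gst-15 share a run, and the other 5 have no second called member beside them.

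Genes that make, use or export around GSTs were counted in 4 lists. Of 14 genes for glutathione synthesis, reduction and partner reactions, none passed against water with any pigment, and 1 was higher with the benzyl ester than with tryptophan-betaxanthin, where 2.1% of all tested probe sets were. It was djr-1.2, a glyoxalase of the DJ-1 family, at 3.68, 3.25 and 2.73 with the benzyl ester and 2.45, 2.31 and 2.14 with tryptophan-betaxanthin (0.92 ± 0.21, adjusted p = 0.0458). gcs-1, the first enzyme of glutathione synthesis and a SKN-1 target, was at 7.15, 7.25 and 7.12 with tryptophan-betaxanthin, 6.93, 7.04 and 6.93 under the methyl ester, 6.65, 6.72 and 7.02 under the benzyl ester, and 7.28 and 7.20 with water. All 6 ester arrays of gcs-1 were below all others, and its benzyl ester difference from water was −0.44 ± 0.12 (adjusted p = 0.147). gsr-1, which reduces oxidised glutathione, differed from water by 0.00 to −0.03 under the pigments (adjusted p of at least 0.911).

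Of 8 glutathione peroxidases, gpx-1 was higher with the methyl ester than with tryptophan-betaxanthin (1.19 ± 0.24, adjusted p = 0.0471, where 0.93% of all were). Another, gpx-6, was higher with the benzyl ester than with tryptophan-betaxanthin (0.88 ± 0.15, adjusted p = 0.0275, where 2.1% of all were). Of 8 MRP genes, whose products export conjugates, none passed in any of the 6 comparisons. At an unadjusted p under 0.05, 3 of them were lower under the methyl ester and 2 under the benzyl ester than with tryptophan-betaxanthin, where 9.91% and 8.92% of all tested probe sets were. Of 14 genes for SKN-1 and its regulators, 1 was higher with the benzyl ester than with tryptophan-betaxanthin, where 2.1% of all tested probe sets were. It was pmk-1, the p38 kinase that activates SKN-1 (0.66 ± 0.15, adjusted p = 0.0458). skn-1 itself differed from water by 0.04 ± 0.28 with tryptophan-betaxanthin, 0.26 ± 0.28 for the methyl ester and −0.13 ± 0.28 for the benzyl ester (adjusted p = 0.993, 0.679 and 0.872). The median benzyl ester difference from water was 0.00 for the synthesis list, −0.07 for the peroxidases, −0.04 for the exporters and −0.09 for the SKN-1 list, against 0.01 over all tested probe sets. Each of these 4 calls held in 2 to 5 of the 11 single-array omissions and in none that left out a water or tryptophan-betaxanthin array (adjusted p up to 0.154 for djr-1.2, 0.2 for gpx-1, 0.0913 for gpx-6 and 0.142 for pmk-1).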

How the data were processed

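Total RNA of whole worms was hybridised to Affymetrix C. elegans Gene 1.1 ST arrays, and 11 arrays were analysed. The deposited values are log2 signals that, per the labels, the authors made by RMA in Affymetrix Expression Console (version not given in the sources used here). In the study's methods, Transcriptome Analysis Console is named. RMA quantile-normalizes arrays, so a shift common to all genes is removed. Scanner files were not used, and background and dim spots could not be set anew.

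Of 29317 probe sets, 26761 with a symbol in the platform annotation were tested, and 2556 without one were left out. All 48 GST symbols matched RefSeq (WBcel235), used for names, chromosomes and neighbour order. One model of the 4 groups was fitted with limma 3.58.1 (lmFit and eBayes, R 4.3.3), with Benjamini-Hochberg adjustment over all tested probe sets and a threshold of 0.05. SE and 95% limits come from the same fit. The number of arrays limits the precision. The labels call the trials independent. The p-values set each difference against the spread between these arrays, estimated over the 4 groups together and moderated by eBayes.

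The members and lists were chosen with earlier results of these data known. Values in every array are given for members past the threshold, the 8 smallest F-test p-values, the 4 highest means, the gsto and gstk genes, gst-42 and GST neighbours of called genes. Deviations from the group means were correlated between arrays. Same-trial values were 0.214 to 0.453 for the methyl ester with tryptophan-betaxanthin and 0.235 to 0.742 with the benzyl ester. They were −0.0609 to 0.472 for the benzyl ester with tryptophan-betaxanthin and −0.0467 to 0.134 for water with any pigment. The first methyl ester array was at 0.431 with the second benzyl ester array, and the second at 0.497 with the first. Third-trial pigment arrays correlated with each other (0.453 to 0.742) and negatively with the other pigments' earlier arrays. These values do not show pairing by trial number. Alternatives were the trial block, the compared groups alone, trend and robust eBayes, array weights, cyclic loess, median centring, a signal filter, all probe sets, thresholds of 0.01 and 0.1, and omission of each array or of the third trial.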

Additional observations from a re-analysis of the deposited data

How the results depend on the processing

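No difference turned its sign among the 1942 recalculations of 98 gene comparisons, where 149 lost and 69 gained a call. These 98 had an unadjusted p under 0.05 in the fit to all arrays, so their signs were unlikely to turn. Small differences outside that set could turn. Without the third trial gst-34 went from 0.106 to −0.007 (tryptophan-betaxanthin against water) and gst-26 from 0.144 to −0.044 (methyl against benzyl ester). The median of the GST genes between the esters went from 0.025 to −0.045. The counts of GST genes past the threshold, given as tryptophan-betaxanthin, methyl ester and benzyl ester against water, then methyl and benzyl ester against tryptophan-betaxanthin, then the F-test, were 0, 1, 3, 2, 7 and 4. At an adjusted p of 0.01 the last 5 became 0, 0, 1, 1 and 1, and at 0.1 those against water were 2 and 5 for the esters, with 9 for the methyl ester against tryptophan-betaxanthin and 10 for the F-test. With array weights the counts were 6 and 13 for the esters against water, 10 for the methyl ester against tryptophan-betaxanthin and 16 for the F-test (11% of all), while 4.61%, 5.74% and 7.45% of all probe sets passed in these 3 pairs of groups. With trend and robust eBayes the esters had 1 and 3 against tryptophan-betaxanthin and the F-test 2. With probe sets above the median signal, which leaves out gst-30, the methyl ester had 0 against water and 1 against tryptophan-betaxanthin, and with all probe sets it had 0 against water. Fits of the compared groups alone gave 4 for the benzyl ester against tryptophan-betaxanthin (3.07% of all). Against water their counts were 2, 0 and 0 (2.96%, 0% and 0% of all). With the trial as a replicate block they were 2 for the methyl ester against water, 9 and 11 for the esters against tryptophan-betaxanthin (11.1% and 11.3% of all probe sets passed) and 8 for the F-test (8.02% of all), and no pairwise call of the unblocked fit was lost. Without the third trial they were 1, 2, 10, 5, 13 and 13, and 1 (gst-9) between the esters. Of all probe sets 0.508%, 2.3%, 5.44%, 3.3%, 10.9% and 8.69% passed in that order, and 0.46% between the esters. Leaving out each array in turn gave 0 to 0, 0 to 1, 0 to 5, 1 to 5, 1 to 8 and 1 to 7, and 0 to 0 between the esters. The benzyl ester count against water was 0 without either water array. Cyclic loess and median centring moved no count by over 1.5 times. Over the single-array omissions the number of all tested probe sets past the threshold swung as well. Those swings are thus not particular to the GST genes. A count without a share of all probe sets, here or above, does not set the family apart from the whole table. The causes were not tested.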
